A study of Mus musculus with 48 samples.

Results

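Kidney slices of DBA/2J and C57BL/6J male mice were compared after 24 h of an ex vivo normoxia-hyperoxia treatment, which the labels call a reperfusion model. The comparison holds the 6 libraries that carry this treatment label, 3 from DBA/2J (DBA) and 3 from C57BL/6J (C57), out of 48 in the series. Both strains are unmodified inbred lines and founders of the BXD recombinant panel, and no drug is named for either group. The other libraries are slices of the same 2 strains kept as controls or given tunicamycin or cyclosporin A for 6 h or 24 h, or held under normoxia for 24 h, which the labels call an ischemia model. Of these, the 24 h controls, the 24 h normoxia slices and the 6 h controls, each with 3 libraries per strain, are used below to ask whether a strain difference was the same outside normoxia-hyperoxia. The oxygen levels, the length of each phase and the age of the mice are not given in the sources used here. A slice has no blood flow. The labels number the samples as biological replicates but do not say whether slices came from separate mice, so p-values measure the spread between these libraries.

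The kidney cortex is made up largely of proximal tubules, whose cells reabsorb glucose, phosphate, amino acids and filtered protein, take up organic anions and cations, and make glucose. These cells burn fatty acids for energy and are known to be the tubule cells most easily harmed when oxygen is withdrawn and returned. A harmed proximal tubule cell is known to lose its transporters and to express injury genes such as Havcr1 (KIM-1). The 2 strains also differ in inherited ways that touch kidney genes, among them a different major histocompatibility (MHC) haplotype and a deletion in Nnt, the mitochondrial transhydrogenase, in C57BL/6J.

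Total gene counts were 18782232, 25137581 and 19840103 in C57 replicates 1, 2 and 3, and 17409315, 5619309 and 19936873 in DBA replicates 1, 2 and 3. DBA replicate 2 was the shallowest of the 48 libraries, whose median total was 19607361. In it 2397 of the 16174 genes tested had under 10 counts, against 427 to 780 in the other 5 libraries. A level of 3 counts equals 0.508 CPM in that library and 0.126 to 0.17 CPM in the others, where CPM is the usual depth-scaled count, with the library total scaled by its TMM (trimmed mean of M-values) factor. Levels below are in this unit and follow the order of the replicate numbers. The first principal component, 70.7% of the variance, separated the strains. Pearson correlations of log2 CPM across genes were 0.979 to 0.987 within a strain and 0.934 to 0.946 between strains. Every marker listed for the tubule segments, collecting duct and podocytes had counts in all 6 libraries. C57 replicates 2 and 3 stood apart in their loop of Henle markers, whose summed level was 15778, 24983 and 9597 CPM in C57 and 15302, 15120 and 13609 CPM in DBA.

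The first question was which genes differed between the strains under normoxia-hyperoxia. In the 6 libraries 3286 of 16174 genes tested (20.3%) differed at an adjusted p under 0.05 by edgeR's quasi-likelihood test with Benjamini-Hochberg adjustment. Of these, 1884 (11.6%) were higher in DBA and 1402 (8.67%) were lower, and these shares are the background against which the lists below are set. The difference exceeded 1 on the log2 scale in 1028 of the higher genes and 380 of the lower genes. The 2 groups of libraries did not overlap for 6327 genes (39.1%), 3349 higher (20.7%) and 2978 lower (18.4%) in DBA. Leaving out the shallow DBA replicate 2 left 2219 genes called, and 2125 of the 3286 were called again with the same sign. A value written with ± is a log2 difference, DBA minus C57, with its standard error, and the adjusted p beside it comes from the same edgeR test.

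Immunoglobulin segments held 7 of the 12 largest increases named by rule. Of 88 variable, joining and constant segments tested, 73 (83.0%) were higher in DBA and none was lower. Their summed level was 71.4, 69.5 and 129 CPM in the C57 libraries and 988, 1916 and 2220 CPM in the DBA libraries, so the groups did not overlap. At least 1 count was found for 45, 47 and 55 segments in the C57 libraries and for 87, 88 and 88 in the DBA libraries. A segment with few or no counts in C57 passed the filter on low counts through the DBA libraries and so had to be higher there, and the share called is therefore given as a description only. Igkv5-39, a kappa light-chain variable segment, had no count in any C57 library and stood at 4.47, 8.98 and 3.58 CPM in DBA, at least 38.3-fold higher against a floor of 3 counts per C57 library. Igkv12-44, Igkv17-127 and Ighv3-8 also had no count in C57 and were at least 46.6, 31.7 and 30.5-fold higher. The call of Igkv12-44 ended without C57 replicate 1 or DBA replicate 3, and with no filter on low counts (adjusted p = 0.241). Igkv8-21 had 1 count in C57 and 413 in DBA, a ratio of 575 with a counting interval of 103 to 22754 (exact binomial, 95%), and Igkv10-94 and Igkv3-4 had 1 and 2 counts in C57 against 429 and 337 in DBA. These intervals cover counting error only. On GRCm38 chromosome 12, from 114000001 to 116000000 in the heavy-chain locus, 22 of 25 genes tested were higher in DBA. Segments of one family are near-copies of each other, and reads of DBA alleles may be split among them, so that single segments are less certain than the sum.

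Plasma cells are known to express the kappa constant-region gene Igkc and the joining chain Jchain, and both were higher in DBA. Igkc is itself one of the 88 segments and part of their sum, so only Jchain is separate from them. Igkc, the kappa constant region, stood at 17.7, 15.3 and 33.6 CPM in C57 and 315, 611 and 735 CPM in DBA, a difference of 4.64 ± 0.44 (adjusted p = 0.000487). Jchain, which joins IgA and IgM units into polymers, stood at 3.31, 3.48 and 7.14 CPM in C57 and 69.1, 150.2 and 149 CPM in DBA, a difference of 4.72 ± 0.42 (adjusted p = 0.000376). Over the 10 lymphocyte and plasma cell markers, 6 were higher and 1 was lower in DBA. Cd3e, part of the T cell receptor complex, was higher by 2.08 ± 0.37 (adjusted p = 0.00381), while Cd8a, the co-receptor of cytotoxic T cells, was lower at -2.26 ± 0.46 (adjusted p = 0.00733). Without DBA replicate 2 the count was 5 higher and 1 lower.

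Among the other large increases were 2 genes of the heart and a hormone-regulated gene. Greb1, known as an oestrogen-regulated gene, stood at 0.1105, 0.168 and 0.357 CPM in C57 and 47.6, 49.1 and 39.8 CPM in DBA, a difference of 7.70 ± 0.24 (adjusted p = 3.20e-08). Mybpc3, the cardiac myosin-binding protein C, stood at 0.1105, 0.2096 and 0.153 CPM in C57 and 28.8, 18.1 and 31.6 CPM in DBA, a difference of 7.30 ± 0.32 (adjusted p = 4.77e-07). Actc1, the cardiac alpha-actin, had 1 count in the C57 libraries together and 250 in DBA, a ratio of 348 with a counting interval of 61.9 to 13795 (adjusted p = 3.28e-05), and stood at 4.301, 9.49 and 5.71 CPM in DBA. All of these were near the floor in C57, where each fitted difference depends on few counts, and well above it in every DBA library. The remaining 2 of the 12 largest increases, H2-Q1 and H2-Q10, are described with the MHC genes.

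The largest decreases included genes with no count at all in DBA. Lrrc31, a leucine-rich repeat protein, stood at 6.85, 16.3 and 5.05 CPM in C57 and had no count in DBA, at least 34.2-fold lower. Zfp970, a zinc finger gene, and Azgp1, a secreted glycoprotein linked to lipid use, also had no count in DBA and were at least 15.3 and 12.8-fold lower. Trim12a, of the TRIM ubiquitin ligase family, stood at 17.1, 17.5 and 21.5 CPM in C57 and 0, 0.169 and 0 CPM in DBA, a single count over all 3 DBA libraries. Atp4a, the catalytic subunit of the proton-potassium pump known from the stomach, stood at 264, 177 and 239 CPM in C57 and 6.17, 9.49 and 7.74 CPM in DBA, a difference of -4.91 ± 0.20 (adjusted p = 1.30e-06). Spock3, a proteoglycan, and Pex5l, a partner of pacemaker channels, differed by -4.74 and -4.69 on the log2 scale with groups that did not overlap. Hba-a2, an alpha-globin gene, stood at 15.96, 15.2 and 10.5 CPM in C57 and 0.622, 0.339 and 0.435 CPM in DBA, and Ifi206 and Gvin1, members of interferon-inducible families, differed by -4.35 and -5.60. Ifi213, a relative of Ifi206, had 334 counts in C57 and 3 in DBA. Trim12a, Hba-a2, Gvin1 and the Ifi200 genes have near-identical copies, so reads may be split among copies and these values are uncertain. Nxpe4 stood at 6.13, 6.497 and 4.69 CPM in C57 and 0.1698, 0.169 and 0.145 CPM in DBA, a difference of -5.13 ± 0.35 (adjusted p = 1.28e-05).

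Genes at which the 2 strains are known to carry different alleles served as a check of the strain labels. The list was chosen with earlier results of these data known, and its direction is no independent evidence. Of its 14 gene models tested, 10 were higher and 2 lower in DBA, 71.4% and 14.3%, with a median difference of 0.94 against 0.00 over all genes tested. H2-Ea-ps, the MHC class II E-alpha gene that C57BL/6J is known not to transcribe (GRCm38 chromosome 17, 34341959 to 34344645), had no count in any C57 library and stood at 362, 326 and 297 CPM in DBA, at least 2216-fold higher. Setting it at this bound leaves the list's median as it is. Every library therefore matched its strain label at this gene. Nnt, which moves reducing equivalents to NADPH in mitochondria, stood at 132, 122 and 123 CPM in C57 and 222, 242 and 244 CPM in DBA, a difference of 0.91 ± 0.08 (adjusted p = 7.74e-05). Nnt is listed as 2 overlapping gene models with nearly the same counts in every library (2385 and 2369 in C57 replicate 1), and both count among the 10.

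The other strain-variant genes included several known from copy-number or coding differences. Glo1, which removes methylglyoxal and is known to be duplicated in DBA/2J, stood at 64.4, 56.5 and 61.9 CPM in C57 and 116, 122 and 117 CPM in DBA, a difference of 0.96 ± 0.08 (adjusted p = 5.39e-05). Alad, a haem synthesis enzyme likewise known to be duplicated, differed by 1.69 ± 0.12 (adjusted p = 1.72e-05), and the endosomal adaptor Wdfy1 by 1.35 ± 0.11 (adjusted p = 3.51e-05). Hdc, the enzyme that makes histamine, stood at 2.38, 2.18 and 2.45 CPM in C57 and 46.5, 36.1 and 28.2 CPM in DBA, a difference of 3.98 ± 0.20 (adjusted p = 1.62e-06). Ahr, the dioxin receptor, of which DBA/2J carries a low-affinity form, stood at 17.6, 21.8 and 18.5 CPM in C57 and 25.3, 26.3 and 24.8 CPM in DBA, a difference of 0.39 ± 0.11 (adjusted p = 0.033). Gpnmb, which DBA/2J is known to carry with a premature stop, stood at 1.49, 1.01 and 1.99 CPM in C57 and 0.679, 0.508 and 0.193 CPM in DBA, a difference of -1.74 ± 0.51 (adjusted p = 0.0373). These 2 calls depended on single libraries. Without DBA replicate 2 they gave adjusted p = 0.104 and adjusted p = 0.0878, Ahr was called only when C57 replicate 2 was the one left out (adjusted p up to 0.121), and Gpnmb was also lost without C57 replicate 1, C57 replicate 3 or DBA replicate 3 (up to 0.118).

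**Figure D1:**
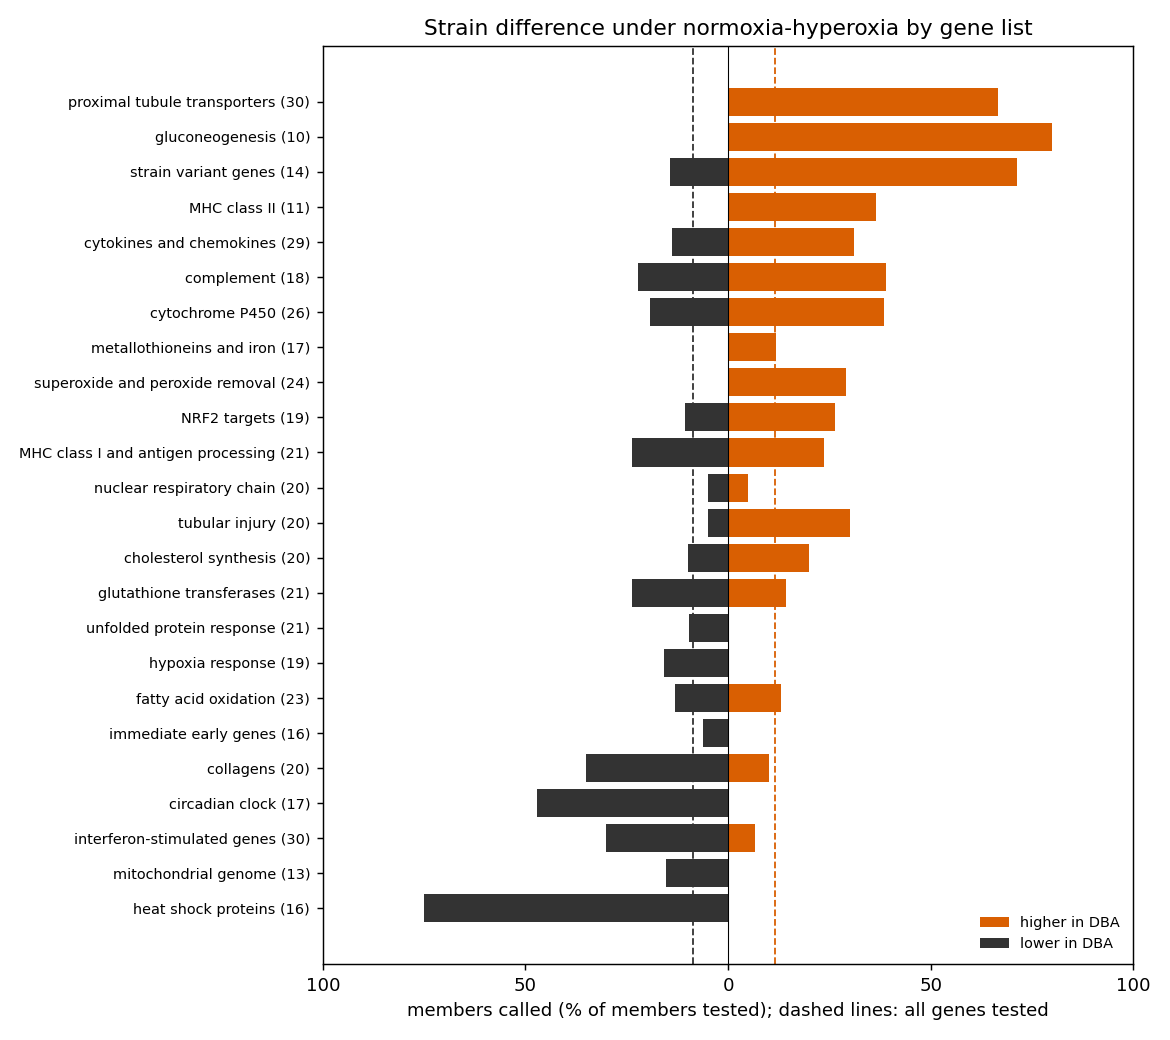
Share of the members tested of each pathway gene list, without the cell type marker lists (number tested in brackets, y axis) that were called higher in DBA (bars to the right) or lower in DBA (bars to the left), in % of members tested, under normoxia-hyperoxia. The dashed lines are the shares over all 16174 genes, 11.6% and 8.67%, and the longest bars are gluconeogenesis, strain variant genes and proximal tubule transporters to the right and heat shock proteins to the left.

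Proximal tubule genes were higher in DBA slices. Of 30 transporters and uptake receptors of this segment, 20 (66.7%) were higher and none was lower, with a median difference of 1.56, and the same counts were found without DBA replicate 2. Their summed level was 686, 929 and 580 CPM in the C57 libraries and 1815, 1416 and 1310 CPM in the DBA libraries. Among solute carriers of the brush border, the sulphate transporter Slc13a1 stood at 3.701, 4.82 and 4.54 CPM in C57 and 34.2, 33.7 and 31.1 CPM in DBA, a difference of 2.91 ± 0.13 (adjusted p = 5.71e-07). The urate transporter Slc22a12 stood at 44.7, 44.3 and 40.2 CPM in C57 and 184, 149.8 and 129 CPM in DBA, a difference of 1.84 ± 0.13 (adjusted p = 1.53e-05). Of the basolateral carriers, the organic anion transporter Slc22a6 stood at 10.8, 9.599 and 13.8 CPM in C57 and 70.4, 49.8 and 52.4 CPM in DBA, a difference of 2.35 ± 0.17 (adjusted p = 2.92e-05). No C57 library reached the lowest DBA library for any of these 3 genes.

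The glucose and phosphate carriers and the endocytic receptor, which also mark the segment, followed. Slc5a2, the glucose transporter SGLT2, stood at 7.29, 11.1 and 12.7 CPM in C57 and 85.1, 68.3 and 54.5 CPM in DBA, a difference of 2.73 ± 0.23 (adjusted p = 0.000145). Slc34a1, the main phosphate transporter, stood at 68.2, 85.3 and 102 CPM in C57 and 448, 321 and 311 CPM in DBA, a difference of 2.08 ± 0.19 (adjusted p = 0.000164). Lrp2 (megalin), which takes up filtered protein, stood at 30.05, 40.3 and 38.8 CPM in C57 and 128, 86.3 and 78.6 CPM in DBA, a difference of 1.43 ± 0.20 (adjusted p = 0.00183). Of 8 proximal tubule markers, 6 were higher, and Aqp1 and Miox did not pass the test. Aqp1, a water channel shared with the thin descending limb, stood at 21.3, 108 and 7.09 CPM in C57 and 43.5, 28.6 and 25.7 CPM in DBA, with C57 replicate 2 above and C57 replicates 1 and 3 below every DBA library. The loop of Henle markers were likewise highest in C57 replicate 2 and lowest in C57 replicate 3. In bulk slices fewer cells of a type and less RNA per cell cannot be told apart, and the part of cell makeup in these differences was not tested.

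Glucose production genes, which in the kidney are known from the proximal tubule, were also higher. Of 10 genes 8 (80.0%) were higher in DBA, none was lower, and for all 10 every DBA library exceeded every C57 library. Slc2a2, the basolateral glucose exit transporter, stood at 3.204, 3.56 and 4.33 CPM in C57 and 19.9, 15.9 and 16.4 CPM in DBA, a difference of 2.24 ± 0.17 (adjusted p = 2.21e-05). G6pc, which releases glucose from its phosphate, stood at 4.198, 7.13 and 9.28 CPM in C57 and 42.5, 35.3 and 27.2 CPM in DBA, a difference of 2.34 ± 0.28 (adjusted p = 0.00088). Khk, the first enzyme of fructose use, differed by 1.22 ± 0.16 (adjusted p = 0.00129), and Fbp2, a fructose-bisphosphatase, by 1.95 ± 0.29 (adjusted p = 0.00143). The entry enzymes Pck1 and Pck2 did not pass the test, at 0.56 ± 0.18 (adjusted p = 0.0596) and 0.18 ± 0.11 (adjusted p = 0.287).

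Cytochrome P450 genes moved in both directions, 10 of 26 tested higher and 5 lower in DBA. Cyp2e1, known for ethanol and acetone oxidation, stood at 15.5, 14.7 and 22.2 CPM in C57 and 160.3, 123 and 117 CPM in DBA, a difference of 2.94 ± 0.19 (adjusted p = 2.65e-05). Among the arachidonic acid epoxygenases of the Cyp2j cluster, Cyp2j13 stood at 2.26, 2.68 and 4.23 CPM in C57 and 46.8, 31.2 and 29.98 CPM in DBA and Cyp2j5 at 17.3, 23.6 and 18.8 CPM in C57 and 116, 70.5 and 75.8 CPM in DBA, both higher in DBA, by 3.56 ± 0.26 (adjusted p = 5.46e-05) and 2.14 ± 0.21 (adjusted p = 0.000324). Their neighbours Cyp2j9 and Cyp2j11 were lower, by -1.78 ± 0.24 (adjusted p = 0.000798) and -1.43 ± 0.18 (adjusted p = 0.00076). Cyp4b1 was higher by 1.23 ± 0.11 (adjusted p = 5.91e-05). Cyp7b1, Cyp2c23 and Cyp39a1, the other 3 lower genes, were named after their values were seen. Genes of these clusters are similar in sequence, so the split of reads among them is uncertain.

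Genes of tubular injury were divided. Of 20 genes 6 were higher and 1 lower in DBA, with a median difference of -0.01. The 6 include Cxcl1 and Ccl2, which are counted again and described with the chemokines. Havcr1 (KIM-1), the injury receptor of the proximal tubule, stood at 1.82, 1.22 and 0.561 CPM in C57 and 22.6, 13.6 and 18.1 CPM in DBA, a difference of 3.94 ± 0.34 (adjusted p = 0.000102). Cd44, an adhesion receptor of regenerating tubules, stood at 29.9, 33.1 and 42.7 CPM in C57 and 95.3, 72.9 and 104 CPM in DBA, a difference of 1.38 ± 0.16 (adjusted p = 0.000665). Lcn2, the injury protein NGAL, stood at 34.96, 30.4 and 19.7 CPM in C57 and 18.2, 19.2 and 22.6 CPM in DBA and did not pass the test (adjusted p = 0.118), though it was called lower without C57 replicate 3 and with no filter on low counts. The lower gene, Sprr2f, an epithelial envelope protein named after its values were seen, stood at 106, 46.2 and 96.2 CPM in C57 and 23.9, 22.5 and 35.4 CPM in DBA, a difference of -1.57 ± 0.33 (adjusted p = 0.0152). So Havcr1 and the transporters of the same segment were both higher in DBA.

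Cytokine and chemokine genes moved both ways. Of 29 tested, 9 were higher in DBA, among them the neutrophil chemokines Cxcl1 and Cxcl2, and 4 were lower. Cxcl1 stood at 29.6, 28.1 and 33.8 CPM in C57 and 129, 109 and 142 CPM in DBA, a difference of 2.07 ± 0.12 (adjusted p = 3.66e-06), and Cxcl2, a second neutrophil chemokine, at 53.4, 42.4 and 39.4 CPM in C57 and 167, 122 and 168 CPM in DBA, a difference of 1.76 ± 0.16 (adjusted p = 9.11e-05). Ccl2, the main monocyte chemokine, stood at 6.63, 8.01 and 7.24 CPM in C57 and 27.7, 24.6 and 34.4 CPM in DBA, a difference of 2.00 ± 0.15 (adjusted p = 2.21e-05). Ccl28, an epithelial chemokine known to attract IgA plasma cells, stood at 0.829, 0.587 and 0.255 CPM in C57 and 9.73, 4.41 and 5.95 CPM in DBA, a difference of 3.62 ± 0.42 (adjusted p = 0.000335). Tnf and Il1b, named after their values were seen, were higher by 1.20 ± 0.20 (adjusted p = 0.00239) and 0.98 ± 0.11 (adjusted p = 0.000337). The 4 lower genes were Cxcl10, Ccl5, Cxcl12 and Cx3cl1. Cxcl10, an interferon-induced T cell chemokine, stood at 326, 365 and 304 CPM in C57 and 104, 113 and 174 CPM in DBA, a difference of -1.34 ± 0.19 (adjusted p = 0.00175), and Ccl5 differed by -1.19 ± 0.25 (adjusted p = 0.0122).

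Markers of macrophages and other myeloid cells were higher in DBA, 7 of 9 tested, and none was lower. Their summed level was 204, 262 and 246 CPM in C57 and 443, 376 and 337 CPM in DBA. Cd68, a lysosomal protein of macrophages, stood at 40.2, 40.03 and 42.97 CPM in C57 and 73.8, 67.5 and 75.5 CPM in DBA, a difference of 0.82 ± 0.09 (adjusted p = 0.00016). Csf1r, the receptor for macrophage growth factor, Adgre1 (F4/80) and the complement subunit C1qa differed by 0.79 ± 0.16 (adjusted p = 0.00741), 0.80 ± 0.17 (adjusted p = 0.00831) and 0.75 ± 0.15 (adjusted p = 0.00878). Leaving out DBA replicate 1 left 4 called and leaving out DBA replicate 2 left 5. The part of this cell type in the cytokine and complement differences was not tested.

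Complement genes moved both ways. Of 18 tested, 7 were higher and 4 lower in DBA. The central component C3 stood at 49.8, 62.7 and 69.4 CPM in C57 and 144, 107 and 155 CPM in DBA, a difference of 1.16 ± 0.16 (adjusted p = 0.0015). Cfb, which forms the alternative pathway convertase with C3, stood at 17.2, 24.8 and 14.5 CPM in C57 and 72.3, 48.3 and 46.8 CPM in DBA, a difference of 1.57 ± 0.24 (adjusted p = 0.00288). C4b, of the classical pathway, stood at 0.939, 1.97 and 1.73 CPM in C57 and 12.6, 5.42 and 6.63 CPM in DBA, a difference of 2.42 ± 0.37 (adjusted p = 0.00205), but it shares reads with its near copy C4a. Cd59a, which blocks the membrane attack complex, stood at 79.5, 79.1 and 77.7 CPM in C57 and 43.6, 45.3 and 46.2 CPM in DBA, a difference of -0.81 ± 0.08 (adjusted p = 9.92e-05). Among the other lower genes, C7 and C1s1 are components of the cascade. Without C57 replicate 3 or DBA replicate 1 the counts were 5 higher and 2 lower, and without DBA replicate 2 they were 5 and 1. In the fit of all 48 libraries they were 4 and 1, and the call of C3 ended (adjusted p = 0.123).

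MHC class I and antigen processing genes moved both ways, 5 higher and 5 lower of 21. The non-classical genes H2-Q1 and H2-Q10 were nearly silent in C57. H2-Q1 stood at 0.1105, 0.0838 and 0.102 CPM in C57 and 19.2, 19.2 and 25.1 CPM in DBA, a difference of 7.67 ± 0.27 (adjusted p = 7.47e-08). H2-Q10, which encodes a secreted class I molecule, stood at 0.442, 0.503 and 0.255 CPM in C57 and 44.6, 54.4 and 57.7 CPM in DBA, a difference of 6.98 ± 0.21 (adjusted p = 2.35e-08). H2-Q2 was higher by 3.03 ± 0.24 (adjusted p = 5.47e-05) and H2-Q6 lower at -0.85 ± 0.11 (adjusted p = 0.000796). Of the classical genes, H2-K1 stood at 491, 618 and 575 CPM in C57 and 358, 389 and 446 CPM in DBA, a difference of -0.50 ± 0.12 (adjusted p = 0.0188), and H2-D1 at 571, 675 and 654 CPM in C57 and 636, 722 and 794 CPM in DBA, a difference of 0.18 ± 0.12 (adjusted p = 0.324). The H2-Q genes are near copies and differ in number between haplotypes, so values of single genes are uncertain. Leaving out DBA replicate 2 left 4 higher and 3 lower, and the call of H2-K1 ended without it, C57 replicate 3 or DBA replicate 1 (adjusted p up to 0.0902).

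Of 11 MHC class II genes tested, 4 were higher and none lower in DBA. Apart from H2-Ea-ps these were H2-DMb2, part of the peptide-loading molecule, H2-Aa, the alpha chain of the A molecule, and the invariant chain Cd74. H2-Aa stood at 213, 311 and 298 CPM in C57 and 480.2, 450.1 and 443 CPM in DBA, a difference of 0.74 ± 0.14 (adjusted p = 0.00492). H2-DMb2 differed by 2.22 ± 0.27 (adjusted p = 0.00045) and Cd74 by 0.69 ± 0.14 (adjusted p = 0.00669). The list's median difference was 0.36, also with H2-Ea-ps at its bound. Under normoxia the direction was the opposite, with 9 of 11 lower and 2 higher in DBA and a median of -0.73, against 25.6% lower over all genes. The interaction with normoxia was called for 9 of the 11, all more toward DBA under normoxia-hyperoxia, against 7.2% of all genes, and for 7 to 9 when each of the 12 libraries was left out in turn. Markers of macrophages and other myeloid cells, which are known to express class II genes, moved with the list, 7 of 9 higher here and 5 of 10 lower under normoxia. Their part in the class II differences was not tested.

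Genes induced by type I interferon gave more lower than higher calls in DBA, and 13 of them had a strain difference that changed from that of the 24 h controls. Of 30 genes 9 (30%) were lower and 2 were higher under normoxia-hyperoxia, with a median difference of -0.32. Ifih1 (MDA5), a sensor of viral RNA, stood at 123, 109 and 132 CPM in C57 and 43.3, 40.5 and 60.4 CPM in DBA, a difference of -1.32 ± 0.15 (adjusted p = 0.000371). The translation inhibitors Ifit1 and Ifit3b stood at 277, 228 and 261 CPM in C57 and 64.96, 49.5 and 108 CPM in DBA and at 67.3, 52.6 and 77.6 CPM in C57 and 19.9, 17.5 and 31.6 CPM in DBA, differences of -1.76 ± 0.25 (adjusted p = 0.00227) and -1.48 ± 0.23 (adjusted p = 0.00324). Oas2, an RNA-activated synthetase, stood at 5.69, 7.71 and 6.37 CPM in C57 and 13.2, 13.1 and 13.1 CPM in DBA and was higher by 0.99 ± 0.15 (adjusted p = 0.00175). Xaf1, the other higher gene, was named after its values were seen. The count of calls was 11 in all and fell to 6, 4 lower and 2 higher, without DBA replicate 2. It was 7 without C57 replicate 3 or DBA replicate 1 or in the fit of all 48 libraries, and 17 with no filter on low counts.

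In the 24 h controls, whose libraries are separate, 28 of the 30 genes were lower in DBA and none was higher, with a median of -1.78, against 10.4% lower and 13.1% higher over all genes. In the 6 h controls 25 were lower, with a median of -1.55, against 10.9% over all genes. Under normoxia 17 were lower and 1 higher, with a median of -0.75, against 25.6% lower over all genes. The interaction test, which compares the strain difference between 2 conditions, called 13 of the 30 against the 24 h controls, all of them more toward DBA under normoxia-hyperoxia, against 0.95% of all genes. That count was 9 without DBA replicate 2 and ran from 5 without replicate 3 of the DBA controls to 17 without replicate 1 of the C57 controls. It was 6 without replicate 1 of the DBA controls or C57 normoxia-hyperoxia replicate 1, 7 without replicate 2 and 8 without replicate 3 of the C57 controls, and 8 without DBA normoxia-hyperoxia replicate 3. Gbp3, a guanylate-binding protein, stood at 27.9, 35.5 and 39.97 CPM in C57 and 29.8, 28.6 and 36.9 CPM in DBA under normoxia-hyperoxia and at 44.6 ± 11.1 CPM in C57 and 11.3 ± 1.22 CPM in DBA (SD, n = 3) in the 24 h controls, and the interaction was 1.85 ± 0.26 (adjusted p = 0.00521). Bst2 (tetherin), which holds virus particles on the cell, differed by -0.05 here and by -1.13 in the 24 h controls, with an interaction of 1.06 ± 0.19 (adjusted p = 0.0128). Against normoxia the interaction was called for 4 genes, all more toward DBA under normoxia-hyperoxia, against 7.2% of all genes. That count was 1 or 2 without any one of the C57 normoxia replicates, DBA normoxia replicates 1 and 2, or C57 normoxia-hyperoxia replicates 1 and 3. No interaction with the 6 h controls was called in the list.

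**Figure D2:**
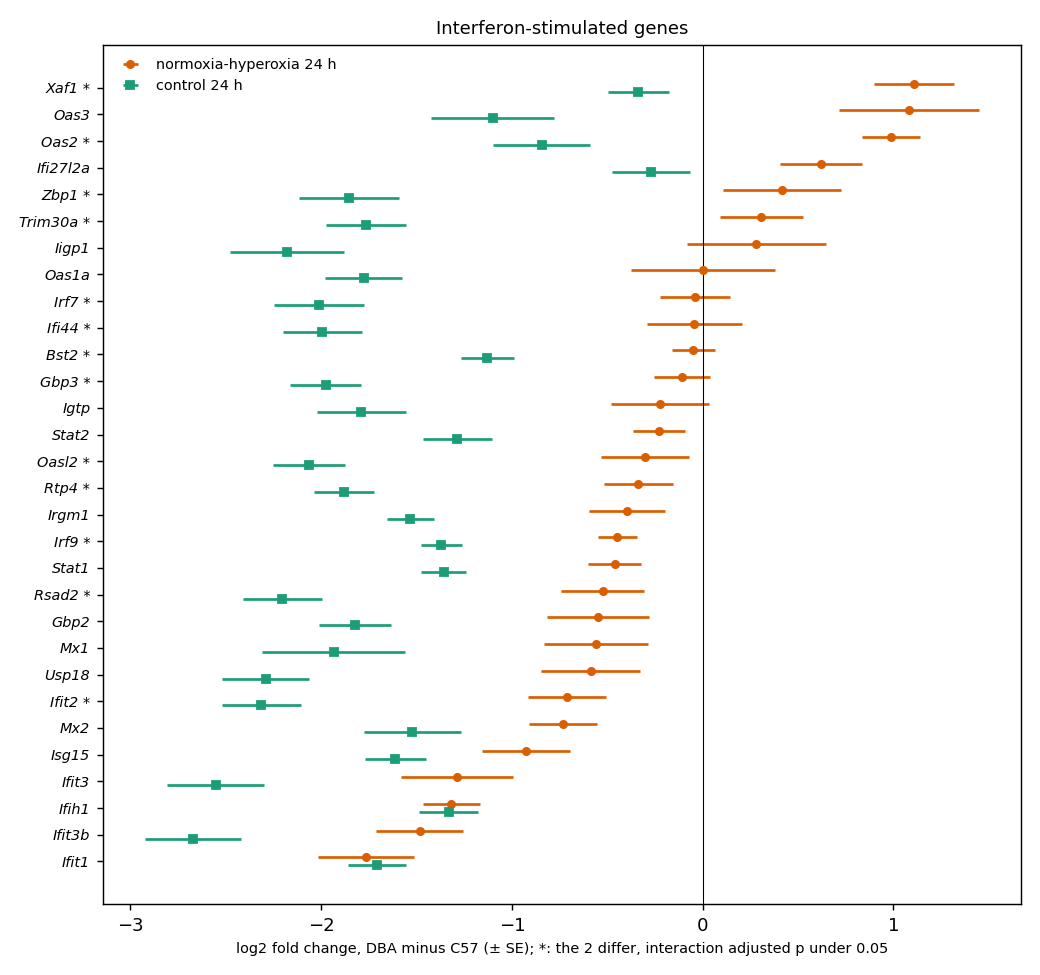
Strain difference of the 30 interferon-stimulated genes (y axis), as the log2 fold change DBA minus C57 with its standard error (x axis), under normoxia-hyperoxia (circles) and in the 24 h controls (squares), 3 libraries per strain in each. An asterisk marks the 13 genes whose interaction was called, and the squares lie to the left of the circles for these genes.

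The promoters of the 30 interferon-stimulated genes were searched for the core of the interferon-stimulated response element, GAAANNGAAA on either strand, overlapping matches counted. Promoters here are windows around each RefSeq transcript start on GRCm38.p6, a C57BL/6J assembly, and the DBA/2J sequence was not used here. Matches were counted over the whole window, which runs past the start. The sequences shown are only its 250 bases before the start. Of these genes 21 had a promoter in the table and 15 of these (71.4%) held the motif, against 1079 of 27025 genes (3.99%) and 1131 of 32851 promoters (3.44%) in all. A match describes the letters only and is not a test of binding. Ifit1 and Ifit3b are shown because they were called lower in DBA under normoxia-hyperoxia, and Gbp3 and Bst2 because their strain difference changed from that of the 24 h controls. Gbp3 has 2 promoters in the table and the other, not shown, lacks the motif. Each runs 5′ to 3′ on the strand of the gene, with the motif matches in capitals, at chr19:34640639-34640888 (plus strand), chr19:34607707-34607956 (plus), chr3:142559794-142560043 (plus) and chr8:71537473-71537722 (minus).
Ifit1: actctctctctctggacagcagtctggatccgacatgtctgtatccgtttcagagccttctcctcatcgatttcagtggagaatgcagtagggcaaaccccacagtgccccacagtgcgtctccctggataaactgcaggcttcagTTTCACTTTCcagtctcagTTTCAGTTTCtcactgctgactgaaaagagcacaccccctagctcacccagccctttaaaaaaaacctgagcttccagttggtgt
Ifit3b: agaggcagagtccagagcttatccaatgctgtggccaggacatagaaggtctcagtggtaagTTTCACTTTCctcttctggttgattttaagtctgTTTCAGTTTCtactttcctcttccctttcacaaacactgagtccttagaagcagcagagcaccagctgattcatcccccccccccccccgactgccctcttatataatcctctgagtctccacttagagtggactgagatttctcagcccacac
Gbp3: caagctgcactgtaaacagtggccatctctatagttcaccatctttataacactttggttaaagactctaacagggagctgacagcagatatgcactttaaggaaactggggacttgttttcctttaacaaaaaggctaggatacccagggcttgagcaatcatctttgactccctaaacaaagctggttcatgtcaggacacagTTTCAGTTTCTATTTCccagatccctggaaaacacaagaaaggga
Bst2: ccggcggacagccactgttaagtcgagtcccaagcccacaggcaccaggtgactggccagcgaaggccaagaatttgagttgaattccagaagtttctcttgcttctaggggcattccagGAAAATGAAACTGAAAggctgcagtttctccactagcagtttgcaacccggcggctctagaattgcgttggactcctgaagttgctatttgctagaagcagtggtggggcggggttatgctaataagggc
The matches began 104 and 85 bases before the start in Ifit1, 188 and 154 in Ifit3b, 45 and 39 in Gbp3 and 130 and 124 in Bst2, the last 2 pairs overlapping.

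Heat shock proteins were lower in DBA. Of 16 genes 12 (75.0%) were lower and none was higher, with a median difference of -0.68, and the groups did not overlap for 14 genes, all lower in DBA. Their summed level was 33346, 22931 and 23419 CPM in the C57 libraries and 14290, 17400 and 16731 CPM in the DBA libraries. C57 replicate 1 was the highest library and DBA replicate 1 the lowest. Hspb1 (HSP27), a small chaperone, stood at 1392, 1152 and 1109 CPM in C57 and 502, 706 and 658 CPM in DBA, a difference of -0.97 ± 0.15 (adjusted p = 0.00189). Hsph1 (HSP105), which recharges HSP70, stood at 3771, 2387 and 2534 CPM in C57 and 1120.1, 1459 and 1264 CPM in DBA, a difference of -1.18 ± 0.19 (adjusted p = 0.00238). The constitutive HSP70 Hspa8 and its relative Hspa4l were lower at -0.78 ± 0.14 (adjusted p = 0.00403) and -0.61 ± 0.13 (adjusted p = 0.0101). The stress-induced copies Hspa1a and Hspa1b are nearly identical and share reads. With 1 library left out the count of calls ran from 4, without DBA replicate 2, to 14, without C57 replicate 2, and it was 4 lower and 1 higher without DBA replicate 1.

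In the other conditions the list was lower in DBA for 4 genes and higher for 3 in the 24 h controls, lower for 7 and higher for 2 under normoxia, and lower for 11 and higher for 1 in the 6 h controls. Over all genes 10.4%, 25.6% and 10.9% were lower and 13.1%, 24% and 12.6% higher in these conditions. The interaction with the 24 h controls was called for 2 genes, both more toward C57, against 0.481% of all genes, and for none without DBA replicate 2 and 5 without C57 normoxia-hyperoxia replicate 2. It was also 0 without replicate 1, 2 or 3 of the C57 controls, replicate 1 or 3 of the DBA controls, C57 normoxia-hyperoxia replicate 1 or DBA normoxia-hyperoxia replicate 1, and 1 without C57 normoxia-hyperoxia replicate 3. Against normoxia it was called for 8 genes, 7 of them more toward C57 and 1 more toward DBA, against 11% and 7.2% of all genes. That count of 8 was 5 without replicate 3 of the C57 normoxia slices or without DBA normoxia-hyperoxia replicate 1.

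The heat shock promoters were searched for GAANNTTC, 2 inverted units of the heat shock element, which reads the same on both strands. Matches were again counted over the whole window, which runs past the start. Of 12 genes with a promoter listed, 9 (75.0%) held it, against 2442 of 27025 genes (9.04%) and 2582 of 32851 promoters (7.86%). Hspb1 and Dnaja1, an HSP70 co-chaperone, are shown as members called lower in DBA. Dnaja1 has 3 promoters in the table, and 1, the promoter shown, holds the motif. It stood at 515, 348 and 392 CPM in C57 and 237, 283 and 289 CPM in DBA, a difference of -0.63 ± 0.15 (adjusted p = 0.015). The parts of the windows shown, which end at the start, are chr5:135887669-135887918 (plus) and chr4:40722218-40722467 (plus), from RefSeq on GRCm38.p6, with the matches in capitals.
Hspb1: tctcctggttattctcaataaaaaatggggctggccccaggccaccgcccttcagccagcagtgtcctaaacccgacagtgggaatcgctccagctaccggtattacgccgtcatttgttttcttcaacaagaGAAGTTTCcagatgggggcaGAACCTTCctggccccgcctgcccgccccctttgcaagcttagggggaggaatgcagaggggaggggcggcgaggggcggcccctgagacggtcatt
Dnaja1: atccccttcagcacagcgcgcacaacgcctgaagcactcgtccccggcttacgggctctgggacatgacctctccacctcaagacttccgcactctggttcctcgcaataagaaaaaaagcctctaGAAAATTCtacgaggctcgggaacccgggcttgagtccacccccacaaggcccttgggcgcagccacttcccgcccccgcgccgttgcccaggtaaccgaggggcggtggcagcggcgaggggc
The matches began 117 and 97 bases before the start in Hspb1 and 124 bases before it in Dnaja1.

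Clock genes were lower in DBA, 8 of 17 with none higher, and a median difference of -0.30. Among the repressors of the clock, Cry1 stood at 43.7, 42.6 and 37.5 CPM in C57 and 22.1, 25.4 and 27.8 CPM in DBA and Per2 at 33.6, 45.8 and 28.6 CPM in C57 and 20.6, 20.3 and 22.1 CPM in DBA, differences of -0.72 ± 0.11 (adjusted p = 0.00198) and -0.77 ± 0.16 (adjusted p = 0.00914). Nr1d1 (REV-ERB alpha), which represses Arntl, stood at 499, 619.5 and 465 CPM in C57 and 337, 373 and 362 CPM in DBA, a difference of -0.56 ± 0.12 (adjusted p = 0.00984), and Bhlhe40, another repressor, differed by -0.84 ± 0.19 (adjusted p = 0.0114). The activator Arntl did not pass the test, at -0.15 ± 0.16 (adjusted p = 0.545). Leaving out C57 replicate 1 left 5 genes called, leaving out DBA replicate 1 left 2, and leaving out DBA replicate 2 left 3. Per2 and Bhlhe40 were lost without DBA replicate 1, and Bhlhe40 without DBA replicate 2 (adjusted p up to 0.0529 and 0.0542). The hour of slicing is not given in the sources used here, and its part in these differences was not tested.

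Some of the genes that handle oxidants were higher in DBA. Of 24 genes that remove superoxide and peroxide, 7 (29.2%) were higher in DBA and none lower. Sod3, the extracellular superoxide dismutase, stood at 29.1, 34.6 and 31.4 CPM in C57 and 84.4, 63.2 and 74.1 CPM in DBA, a difference of 1.23 ± 0.12 (adjusted p = 9.91e-05). Glrx, which removes glutathione from proteins, stood at 20.9, 21.2 and 25.3 CPM in C57 and 44.2, 47.5 and 54.98 CPM in DBA, a difference of 1.12 ± 0.12 (adjusted p = 0.00017). Gpx1, the main glutathione peroxidase, stood at 259, 245 and 278 CPM in C57 and 514, 417 and 405 CPM in DBA, a difference of 0.77 ± 0.11 (adjusted p = 0.0014), and the methionine sulphoxide reductase Msra was higher by 0.92 ± 0.17 (adjusted p = 0.00596). The cytosolic and mitochondrial dismutases Sod1 and Sod2 and catalase (Cat) differed by 0.09, 0.05 and 0.16 and did not pass the test.

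Of 19 genes known as targets of the oxidant-sensing factor NRF2, 5 were higher and 2 lower, with a median of 0.07. Slc7a11, which imports cystine for glutathione synthesis, stood at 5.19, 3.81 and 3.67 CPM in C57 and 19.2, 16.6 and 12.6 CPM in DBA, a difference of 1.93 ± 0.21 (adjusted p = 0.000194). Gsr, which regenerates glutathione, stood at 57.8, 58.6 and 61.9 CPM in C57 and 98.9, 104 and 90.04 CPM in DBA, a difference of 0.71 ± 0.09 (adjusted p = 0.000399). Osgin1 and Me1, the NADPH-making malic enzyme, were higher by 0.58 ± 0.09 (adjusted p = 0.00167) and 0.95 ± 0.15 (adjusted p = 0.00241), and the ferritin light chain Ftl1 by 0.50 ± 0.12 (adjusted p = 0.0153). The lower genes were Gclc, the catalytic subunit for glutathione synthesis, and Ephx1, at -0.66 ± 0.17 (adjusted p = 0.0258) and -0.35 ± 0.10 (adjusted p = 0.0349). The classic reporters Hmox1 and Nqo1 differed by -0.48 ± 0.18 (adjusted p = 0.0824) and -0.25 ± 0.13 (adjusted p = 0.211) and did not pass the test, though Hmox1 was called lower without DBA replicate 3, by DESeq2, with no filter on low counts and in the fit with the 24 h controls. Without C57 replicate 1, which ended the call of Ftl1 (adjusted p = 0.059), the counts were 4 higher and 0 lower, and without DBA replicate 2 they were 5 and 0. The interaction with the 24 h controls was called for 6 genes of the list, all more toward DBA under normoxia-hyperoxia, against 0.95% of all genes, and for 5 to 8 with each library left out in turn. Against normoxia it was called both ways, for 3 genes more toward DBA and 4 more toward C57, the latter including Hmox1 at -1.37, against 7.2% and 11% of all genes. These 7 became 2 to 6 with each library left out, and 4 or fewer without any library other than replicate 2 of the C57 normoxia slices and, under normoxia-hyperoxia, C57 replicate 2 and DBA replicate 3.

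Glutathione transferases, which attach glutathione to reactive products, were higher for 3 and lower for 5 of 21 genes tested. Gsta2 stood at 15.5, 22.05 and 22.6 CPM in C57 and 4.87, 3.39 and 3.92 CPM in DBA, a difference of -2.27 ± 0.20 (adjusted p = 5.00e-05). Gsto1 stood at 62.3, 54.4 and 52.5 CPM in C57 and 25.7, 28.6 and 31.3 CPM in DBA, a difference of -0.98 ± 0.11 (adjusted p = 0.000245), and Gstm2 was lower at -0.63 ± 0.09 (adjusted p = 0.0015). Gstm5 stood at 17.9, 18.7 and 20.1 CPM in C57 and 76.3, 50.7 and 46.6 CPM in DBA, a difference of 1.62 ± 0.18 (adjusted p = 0.00047). Reads of the similar Gsta and Gstm genes may be split among copies. Of 17 metallothionein and iron genes 2 (11.8%) were higher, a share near the 11.6% of all genes. They were Steap3, a ferric reductase of the endosome, at 1.34 ± 0.20 (adjusted p = 0.00212), and Ftl1. The 2 calls became 1 without C57 replicate 1, 4 without C57 replicate 2 and 8 with no filter on low counts.

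Genes for energy metabolism other than glucose production gave calls in both directions. Of 20 nuclear genes of the respiratory chain 1 was higher and 1 lower in DBA. The lower gene was Cox7a2l, a factor for supercomplexes, at -0.88 ± 0.09 (adjusted p = 0.000165). Of the 13 protein genes of the mitochondrial genome, 2 were lower. mt-Nd3 had 86, 147 and 113 counts in C57 and 10, 0 and 11 in DBA, a difference of -3.58 ± 0.41 (adjusted p = 0.000288), and mt-Nd5 differed by -0.68 ± 0.17 (adjusted p = 0.019). Mitochondrial counts made up 12.2%, 16.6% and 13.4% of the C57 libraries and 17.4%, 12.7% and 11% of the DBA libraries, which overlap. The count of 2 became 4 without C57 replicate 1 and 1, mt-Nd3, without DBA replicate 2 or 3. In the 24 h controls 9 of the 11 tested were lower in DBA, where 10.4% of all genes were lower, and under normoxia all 13, where 25.6% of all genes were lower. In the 6 h controls 9 of 13 were lower, where 10.9% of all genes were. The interaction with normoxia was called for 8 of 13, all more toward DBA, against 7.2% of all genes, and for 5 to 9 with a library left out. That with the 24 h controls was called for 1, against 0.95% of all genes, and for 0 to 4 with a library left out. None was called against the 6 h controls.

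Of 23 genes of fatty acid oxidation 3 were higher and 3 lower. Mlycd, malonyl-CoA decarboxylase, which removes the inhibitor of fatty acid entry into mitochondria, was higher (below), as were Acaa1b and Ehhadh of the peroxisome, named after their values were seen. Acacb, which makes malonyl-CoA at mitochondria, Acaa2, a mitochondrial thiolase, and Cpt1a, the liver-type entry enzyme, were lower at -0.53 ± 0.10 (adjusted p = 0.00469), -0.50 ± 0.10 (adjusted p = 0.0065) and -0.33 ± 0.09 (adjusted p = 0.0226). The 6 calls became 3, 1 higher and 2 lower, on leaving out C57 replicate 1, C57 replicate 3, DBA replicate 1 or DBA replicate 2, and Cpt1a was also lost without C57 replicate 2 (adjusted p up to 0.0835). In cholesterol synthesis 4 of 20 were higher and 2 lower. Sc5d, a sterol desaturase, stood at 31.2, 34.3 and 38.2 CPM in C57 and 18.9, 16.6 and 19.5 CPM in DBA, a difference of -0.90 ± 0.11 (adjusted p = 0.000535). Mvk and Dhcr7 were higher by 0.79 ± 0.17 (adjusted p = 0.00862) and 0.69 ± 0.16 (adjusted p = 0.0123).

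Genes tied to low oxygen and protein folding gave few calls. Of 19 genes of the hypoxia response tested, 3 (15.8%) were lower in DBA and none higher. They were Eno1, a glycolytic enzyme, at -0.46 ± 0.10 (adjusted p = 0.0105), P4ha1, a collagen hydroxylase subunit, at -0.38 ± 0.10 (adjusted p = 0.0212), and Ddit4, an inhibitor of mTOR, at -0.54 ± 0.15 (adjusted p = 0.036). Vegfa, the endothelial growth factor, and Slc2a1, the glucose transporter GLUT1, differed by -0.23 ± 0.13 (adjusted p = 0.244) and -0.40 ± 0.18 (adjusted p = 0.146), the latter called with no filter on low counts. The 3 calls became 1 without C57 replicate 1, C57 replicate 3 or DBA replicate 2 and 5 without C57 replicate 2, and P4ha1 and Ddit4 were lost without any one of C57 replicates 1 and 3 and DBA replicates 1 and 2 (adjusted p up to 0.0813 and 0.0983). Of the 21 gene models of the unfolded protein response 2 (9.52%) were lower, a share near the 8.67% of all genes. They were Dnajc3 at -0.41 ± 0.10 (adjusted p = 0.0154) and Asns at -0.62 ± 0.16 (adjusted p = 0.0269). That count was 1 without C57 replicate 1, C57 replicate 3 or DBA replicate 2, and 0 without DBA replicate 1. Of 16 immediate early genes only Fos was called, at -0.49 ± 0.12 (adjusted p = 0.0177), and the count was 4 without C57 replicate 3, 3 without DBA replicate 3 and 0 without DBA replicate 2. With no filter on low counts 7 hypoxia, 5 unfolded protein response and 7 immediate early genes were called, and in the fit of all 48 libraries no immediate early gene was.

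Collagen genes were lower in DBA for 7 of 20 and higher for 2. Col5a2, a chain of fibrillar collagen V, stood at 112, 89.2 and 119 CPM in C57 and 5.88, 6.78 and 6.67 CPM in DBA, a difference of -4.06 ± 0.14 (adjusted p = 6.99e-08). Col1a1 and Col1a2, the chains of collagen I, were lower at -1.09 ± 0.13 (adjusted p = 0.000374) and -0.85 ± 0.17 (adjusted p = 0.00895), and Col4a5 of the basement membrane by -0.52 ± 0.11 (adjusted p = 0.01). The higher genes were Col8a1 and Col27a1, named after their values were seen. Leaving out DBA replicate 1 or DBA replicate 2 left 1 higher and 4 lower. The fit of all 48 libraries left 1 higher and 2 lower, and the calls of Col1a1 and Col1a2 ended in it (adjusted p = 0.293 and adjusted p = 0.215).

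Markers of the other kidney cell types gave calls toward C57 or none. Of 8 principal cell markers 4 were lower in DBA, with Scnn1g, a subunit of the sodium channel ENaC, at 258, 159 and 241 CPM in C57 and 87.7, 109.8 and 96.4 CPM in DBA, a difference of -1.16 ± 0.18 (adjusted p = 0.00276). The water channel Aqp3, the ENaC subunit Scnn1b and Hsd11b2, which inactivates corticosterone, were lower at -0.52 ± 0.12 (adjusted p = 0.0156), -0.67 ± 0.16 (adjusted p = 0.0202) and -0.61 ± 0.18 (adjusted p = 0.0456). The 4 calls became 2 without C57 replicate 1, C57 replicate 3, DBA replicate 2 or DBA replicate 3. The call of Hsd11b2 also ended without C57 replicate 2 and that of Scnn1b without DBA replicate 1. No marker was called of 7 for the loop of Henle, 5 for the distal convoluted tubule, 7 for intercalated cells, 7 for podocytes and 8 for endothelium. With a library left out, 1 loop marker was called without C57 replicate 2 or 3, 1 distal marker without C57 replicate 3, 1 podocyte marker without DBA replicate 1 or 3, 1 endothelial marker without C57 replicate 1, 2 intercalated markers without C57 replicate 2 and 3 without DBA replicate 3. With no filter on low counts 1 loop, 3 distal, 3 podocyte and 1 endothelial markers were called, and with the replicate block 4 intercalated and 1 podocyte markers. Of 7 fibroblast and mural markers Rgs5, of pericytes, was lower at -0.59 ± 0.17 (adjusted p = 0.0366), a call lost without C57 replicate 1 too, and the count was 0 without C57 replicate 2, DBA replicate 1 or DBA replicate 3, 4 without C57 replicate 3, 3 without DBA replicate 2 and 7 with no filter on low counts. Besides Hba-a2, the beta-globin Hbb-bt was lower at -1.88 ± 0.27 (adjusted p = 0.0013). Star, the only adrenal cortex marker of 6 that could be tested, stood at 4.86, 5.99 and 10.04 CPM in C57 and 1.36, 1.69 and 2.95 CPM in DBA, a difference of -1.74 ± 0.36 (adjusted p = 0.00912). Fabp4 of adipocytes and Upk1a of urothelium, the only testable markers of those types, did not pass the test.

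The second question was whether the strain difference under normoxia-hyperoxia was that of the other conditions. Strain differences were called for 3755 of 16005 genes (23.5%) in the 24 h controls, 7975 of 16098 (49.5%) under normoxia and 3713 of 15803 (23.5%) in the 6 h controls, from libraries not used in the normoxia-hyperoxia comparison. Of genes tested in both, 1681 were called the same way under normoxia-hyperoxia and in the 24 h controls, 55.2% of the former and 46.6% of the latter, and 21 were called opposite ways. With normoxia 2099 were shared (67.7% and 27.4%) and 164 were opposite, and with the 6 h controls 1946 were shared (61.7% and 53.6%) and 5 were opposite. Of 14591 genes tested in all 4 conditions, 752 were higher and 400 lower in DBA in each. Pearson correlations of the log2 differences across genes were 0.83, 0.79 and 0.87. Spearman correlations, which use ranks only, were lower at 0.58, 0.52 and 0.69. Both are descriptions over genes that are not independent.

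The interaction tests share the normoxia-hyperoxia libraries, so they are not independent of each other. Against the 24 h controls 247 of 17256 genes (1.43%) were called, 164 more toward DBA under normoxia-hyperoxia (0.95%) and 83 more toward C57 (0.481%). This count was 128 without DBA normoxia-hyperoxia replicate 2 and ran from 103 without replicate 3 to 524 without replicate 2 of the DBA controls. It was 126 without replicate 2 and 128 without replicate 3 of the C57 controls, 142 without replicate 1 of the DBA controls, and 114 without C57 normoxia-hyperoxia replicate 1. Against normoxia 3134 of 17228 (18.2%) were called, 1241 more toward DBA (7.2%) and 1893 more toward C57 (11%). Which direction held more calls depended on the setting, with 2086 more toward DBA and 1323 more toward C57 with no filter, 1026 and 727 with thinned libraries, and 1271 and 1198 in the fit of all 48 libraries. Against the 6 h controls 39 of 16841 (0.232%) were called, 24 more toward DBA (0.143%) and 15 more toward C57 (0.0891%). The last count was at or under 17 without any one normoxia-hyperoxia library other than C57 replicate 2, which left 59. It was 80, 75 and 11 without replicates 1, 2 and 3 of the C57 6 h controls, and 15 and 14 without replicates 2 and 3 of the DBA 6 h controls. Of 420 genes called under normoxia-hyperoxia and in no other condition, 222 had a called interaction in at least 1 of the 3 tests and 1 in all 3.

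**Figure D3:**
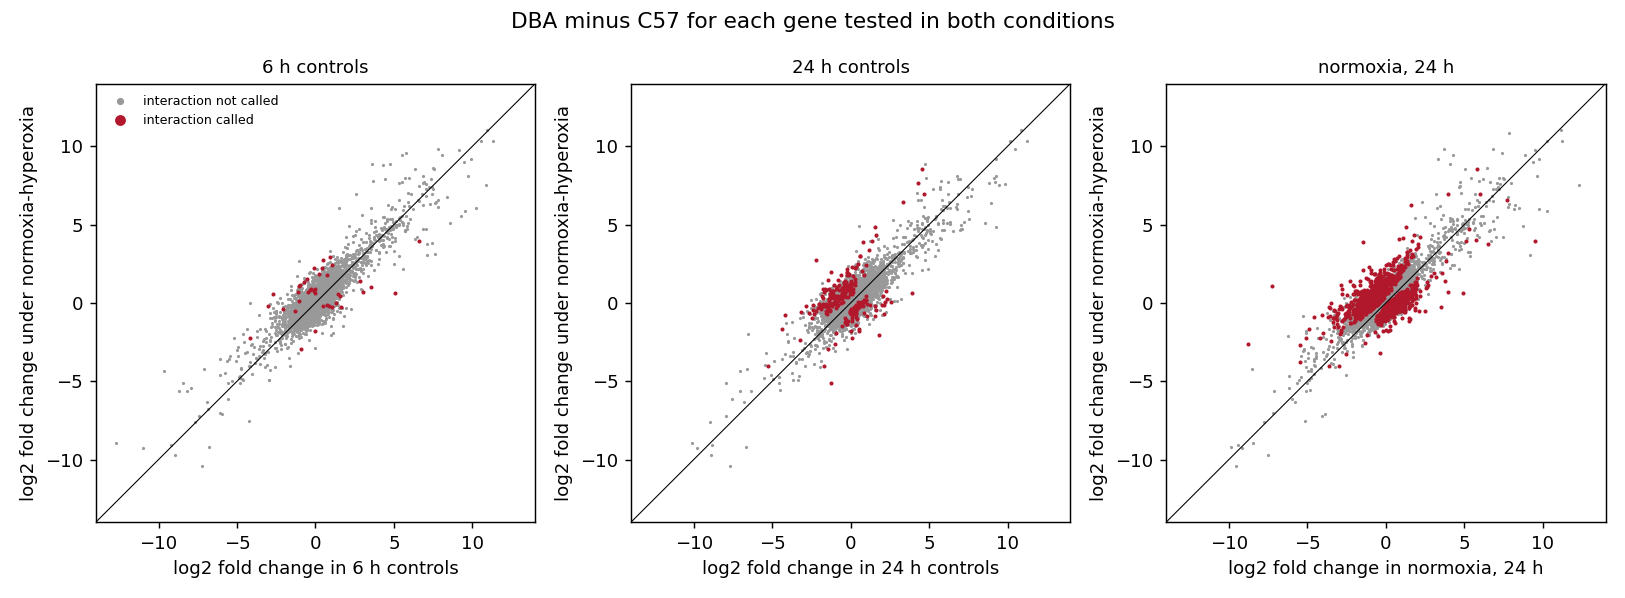
Log2 fold change, DBA minus C57, of each gene tested in both conditions under normoxia-hyperoxia (y axis) against that in the 24 h controls, normoxia and the 6 h controls (x axes). Red points are genes whose interaction was called and the line marks equal differences, and most red points are in the normoxia panel.

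By list, the proximal tubule transporters were also higher in DBA for 22 of 29 genes tested in the 24 h controls, 20 of 30 under normoxia and 18 of 29 in the 6 h controls, against 13.1%, 24% and 12.6% of all genes. Of their interactions none was called against the 24 h controls, although 2 were without DBA control replicate 1 and 1 without C57 control replicate 1, DBA control replicate 2 or C57 normoxia-hyperoxia replicate 3. There were 4, all more toward DBA, against normoxia, where 7.2% of all genes were, and 7 without replicate 2 of the C57 normoxia slices. Of the 2 called against the 6 h controls 1 was called without any one library other than C57 normoxia-hyperoxia replicate 2, DBA normoxia-hyperoxia replicate 3 and replicate 2 of the C57 6 h controls. Without the last of these 8 were called. Slc13a1 was among them in both, at 1.47 ± 0.26 (adjusted p = 0.0024) and 2.00 ± 0.24 (adjusted p = 0.0029). For MHC class I and antigen processing, 13 of 21 genes were lower and 3 higher in DBA in the 24 h controls, against 10.4% and 13.1% of all genes, and 8 interactions were called, all more toward DBA, against 0.95%. These were 4 without DBA normoxia-hyperoxia replicate 2, C57 normoxia-hyperoxia replicate 1 or replicate 3 of the DBA controls, 5 without replicate 3 of either strain under normoxia-hyperoxia or replicate 1 of the DBA controls, and 11 at most. The macrophage markers had 8 of 10 interactions called against normoxia, all more toward DBA, where 7.2% of all genes were, and 7 or 8 with each library left out.

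**Figure D4:**
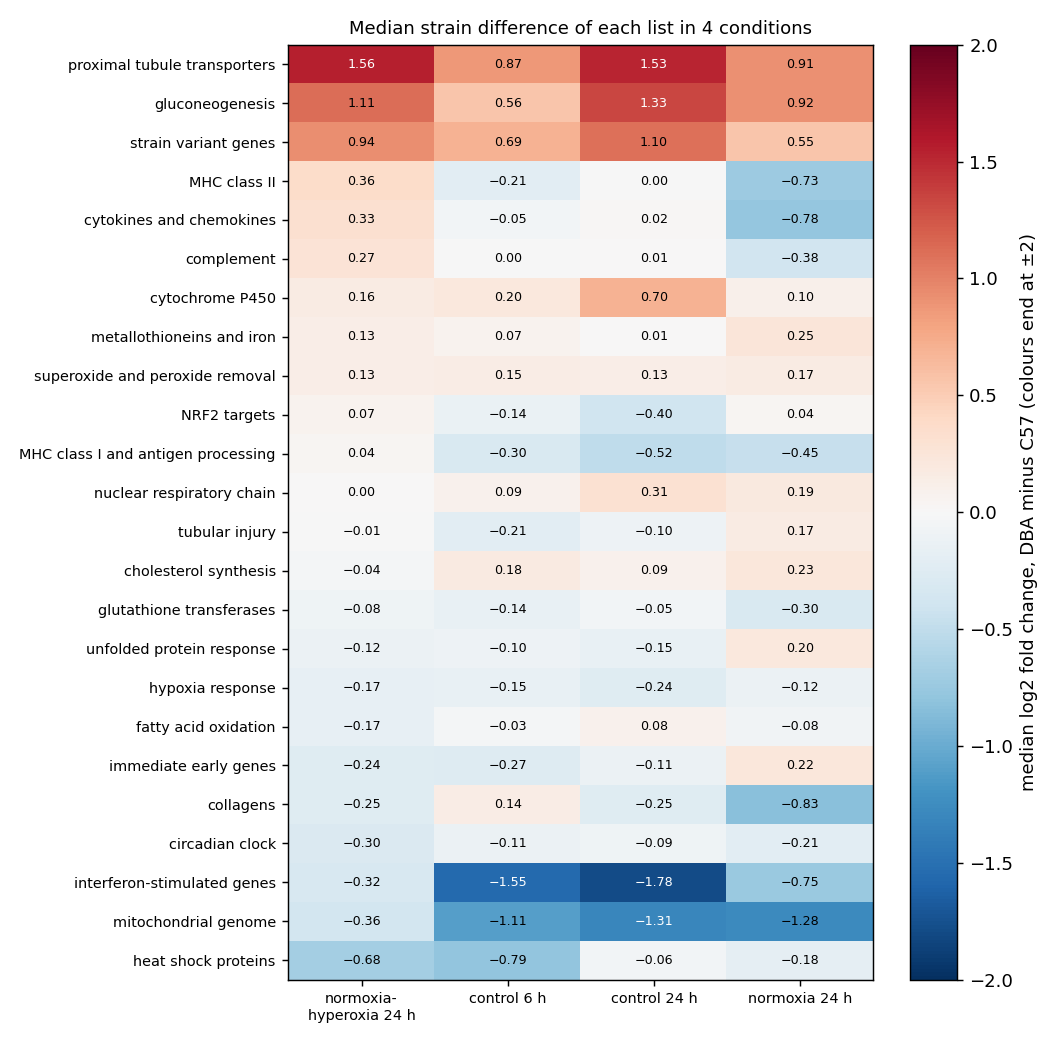
Median log2 fold change, DBA minus C57, of the members tested of each gene list (rows) in the 4 conditions (columns), with the colour scale ending at -2 and 2. The interferon row is at -0.32 under normoxia-hyperoxia and at -1.78 in the 24 h controls, and the proximal tubule transporter row is at 1.56 under normoxia-hyperoxia.

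Only 8 genes had interactions called with the same sign against all 3 other conditions, and the 6 with the largest differences are described. Mlycd (GRCm38 chromosome 8, 119394878 to 119411102) stood at 13.04, 15.3 and 13.9 CPM in C57 and 75.1, 76.3 and 73.9 CPM in DBA, a difference of 2.41 ± 0.09 (adjusted p = 1.81e-07). Its strain differences were 0.96 in the 24 h controls, -0.01 under normoxia and 1.06 in the 6 h controls, with interactions of 1.43 ± 0.12 (adjusted p = 1.99e-05), 2.31 ± 0.14 (adjusted p = 7.89e-07) and 1.35 ± 0.21 (adjusted p = 0.017). The first 2 were called with any of the 12 libraries left out and the last in 6 of 12 such fits. Cyp2j9 stood at 6.13, 5.45 and 7.44 CPM in C57 and 1.81, 2.37 and 1.596 CPM in DBA and differed by 0.01, 0.12 and -0.04 in the other conditions. Its interactions were -1.80 ± 0.35, -2.03 ± 0.23 and -1.75 ± 0.29, called in 9, 12 and 4 of 12 fits. Rassf4, a scaffold of the RAS association family, stood at 11.3, 12.7 and 13.3 CPM in C57 and 23.1, 24.7 and 21.9 CPM in DBA, a difference of 0.89 ± 0.11 (adjusted p = 0.000592), against -0.49, -0.59 and -0.05 elsewhere. Gng2, a G protein gamma subunit, differed by 0.79 ± 0.12 (adjusted p = 0.00171), against -0.15, -0.53 and -0.36. For Rassf4 and Gng2 the interaction with the 6 h controls was called in 1 and 3 of 12 fits, and for Gng2 that with the 24 h controls in 6 of 12.

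C4a and Pm20d1 differed less here than elsewhere. C4a, a copy of complement C4, stood at 1.82, 2.096 and 2.6 CPM in C57 and 4.41, 3.22 and 2.66 CPM in DBA, a difference of 0.66 ± 0.28 (adjusted p = 0.127), but at 3.89, 4.94 and 5.06 on the log2 scale in the other conditions. All 3 of its interactions were called with any library left out, and its reads are shared with C4b. Pm20d1, which makes N-acyl amino acids, stood at 45.1, 34.2 and 44.5 CPM in C57 and 55.7, 51.9 and 61.6 CPM in DBA, a difference of 0.46 ± 0.12 (adjusted p = 0.0259) that was lost without C57 replicate 2, DBA replicate 1 or DBA replicate 3, against 2.08, 1.64 and 1.55, with interactions called in 8, 12 and 5 of 12 fits. The remaining 2 were Cyp51 and Mgst3, lower at -0.29 and -0.16 on the log2 scale here, neither past the test, and higher in DBA by 1.03 and 0.75 in the 6 h controls.

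The strain differences of Gcnt1, Hgsnat and Hdc changed in size or sign between conditions. Gcnt1, a glycosyltransferase that branches O-glycans, stood at 14.03, 18.6 and 13.4 CPM in C57 and 29.1, 33.2 and 36.5 CPM in DBA under normoxia-hyperoxia, a difference of 1.10 ± 0.15 (adjusted p = 0.000767). Under normoxia it stood at 313 ± 29.2 CPM in C57 and 2.05 ± 1.14 CPM in DBA (SD, n = 3), a difference of -7.24 and an interaction of 8.23 ± 0.36 (adjusted p = 9.38e-07). In the 24 h controls and the 6 h controls the difference was 0.41 and -1.05, and the interaction with the 6 h controls was 2.15 ± 0.22 (adjusted p = 0.000828). Hgsnat, a lysosomal enzyme that breaks down heparan sulphate, stood at 71.5, 60.4 and 72.4 CPM in C57 and 56.5, 60.2 and 64.6 CPM in DBA, a difference of -0.17 ± 0.10 (adjusted p = 0.257), with overlapping groups. In the 24 h controls it stood at 317 ± 14.3 CPM in C57 and 44.2 ± 2.81 CPM in DBA (SD, n = 3), and the interaction was 2.65 ± 0.13 (adjusted p = 4.92e-08). Under normoxia and in the 6 h controls C57 stood at 52.4 ± 1.78 and 68.97 ± 10.9 CPM (SD, n = 3), near its level under normoxia-hyperoxia. The strain differences in these 2 conditions were -0.56 and -0.94, and the interactions were not called (adjusted p = 0.14 and adjusted p = 0.0801). Hdc was higher in DBA in all 4 conditions, and its difference of 3.98 was smaller than that under normoxia, 9.51, where it stood at 0.544 ± 0.209 CPM in C57 and 395 ± 21.2 CPM in DBA (SD, n = 3), with an interaction of -5.64 ± 0.34 (adjusted p = 9.38e-07). The interaction with the 6 h controls was -2.59 ± 0.30 (adjusted p = 0.0029).

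The strain differences of Gsta2, Col5a2, Havcr1, Slc7a11 and the chemokines Cxcl1 and Ccl2 also depended on the condition. Gsta2 was lower in DBA by -2.27 on the log2 scale here and differed by 0.10 in the 24 h controls, with an interaction of -2.38 ± 0.23 (adjusted p = 0.0002). Under normoxia and in the 6 h controls the differences were -4.19 and -4.16, larger than here, and the interactions had the opposite sign, 1.82 ± 0.31 (adjusted p = 0.00192) and 1.89 ± 0.29 (adjusted p = 0.017). Col5a2 differed by -4.06 here and by -1.71 in the 24 h controls, an interaction of -2.37 ± 0.17 (adjusted p = 4.08e-06). Havcr1 differed by 3.94 here and by 1.25, 1.65 and 4.04 in the 24 h controls, normoxia and the 6 h controls. Its interaction was called against normoxia, 2.18 ± 0.47 (adjusted p = 0.00685), and not against the 24 h controls, 2.7 ± 0.59 (adjusted p = 0.0533). Cxcl1 and Ccl2 had interactions with the 24 h controls of 1.31 ± 0.17 (adjusted p = 0.00169) and 2.22 ± 0.35 (adjusted p = 0.0104), and Slc7a11 of 2.15 ± 0.30 (adjusted p = 0.00521). Each interaction called in this paragraph was called with any of the 12 libraries left out, except that of Gsta2 with the 6 h controls, which was called in 8 of 12 such fits.

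**Figure D5:**
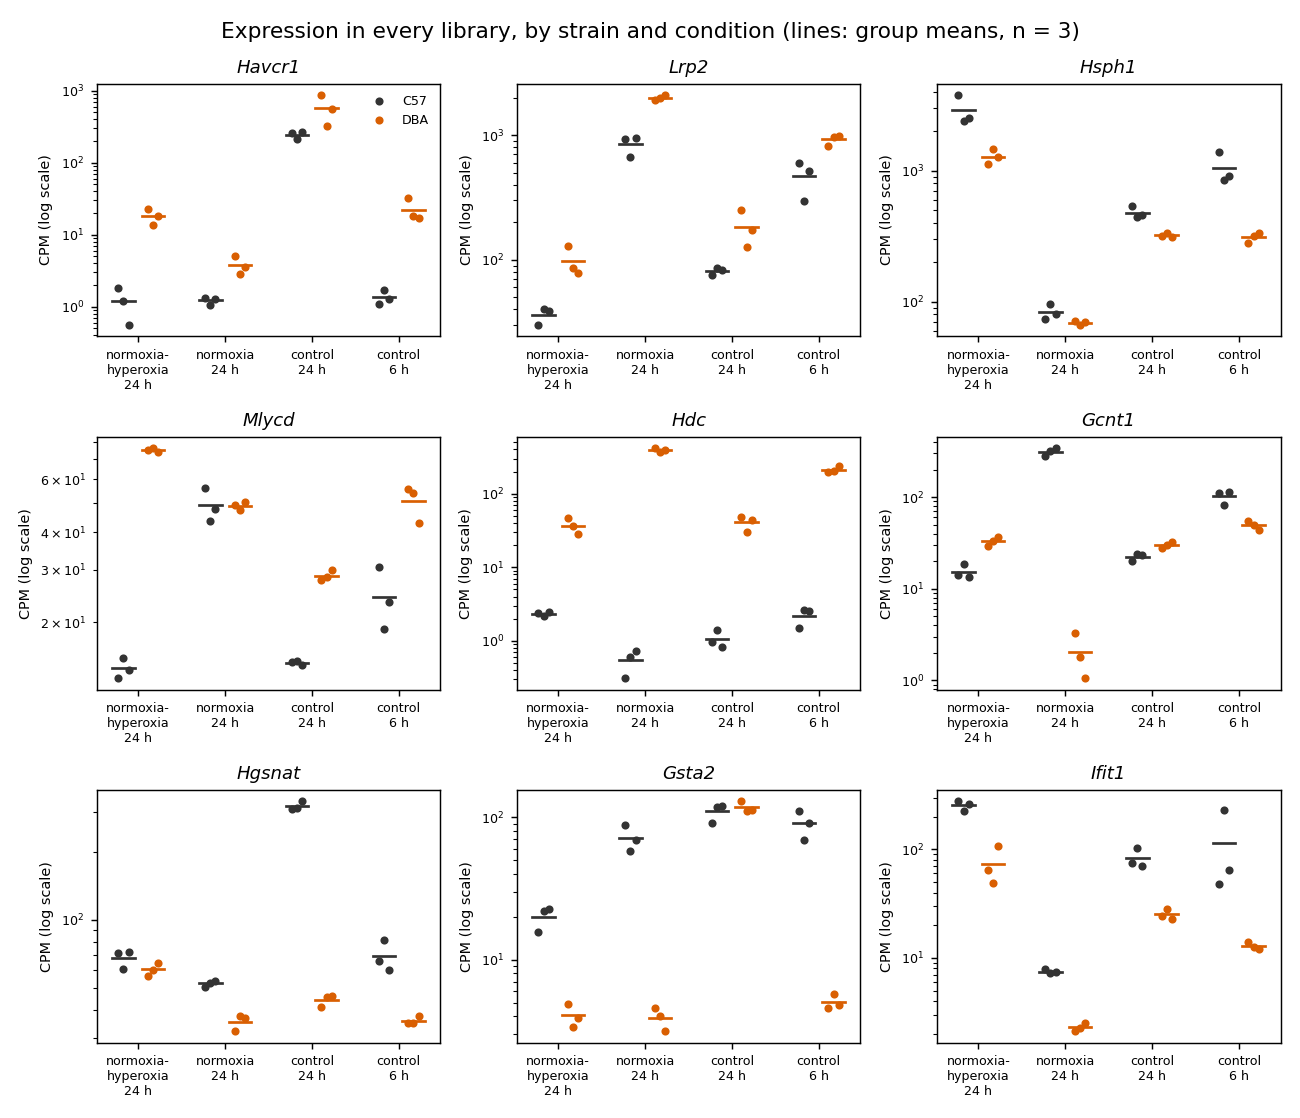
CPM of 9 genes (log axis) in every library of the 4 conditions, by strain (colours), with lines at the mean of 3 libraries. For Mlycd the DBA libraries lie between 73.9 and 76.3 CPM and the C57 libraries between 13 and 15.3 CPM under normoxia-hyperoxia, while for Hgsnat the strains overlap there.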

How the data were processed

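RNA was measured by stranded mRNA sequencing of kidney slices, and the deposited table gives raw counts per gene for all 48 libraries, with no normalization. Per the submitters' processing notes the tools were bcl2fastq 2.20.0, FastQC 0.11.8, STAR 2.7.9a and featureCounts 1.5.1 with the GRCm38 build. Their settings, the annotation release and whether counting used strand are not given in the sources used here, so overlapping and antisense genes cannot be told apart from their partners. GRCm38 is a C57BL/6J assembly, and reads of DBA/2J alleles that differ from it may be lost or assigned to a related copy, which was not tested for any gene. The table has 55487 Ensembl gene IDs. Symbols were matched for 55141 of them and positions and biotypes for 55227 from GENCODE M21 on GRCm38.

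Groups came from the sample labels. Genes were kept by edgeR's filterByExpr (minimum count 10, minimum total 15), libraries were scaled by TMM, and DBA was tested against C57 with edgeR 4.0.16 (robust quasi-likelihood, R 4.3.3) with Benjamini-Hochberg adjustment and a threshold of 0.05. Interactions, (DBA minus C57 under normoxia-hyperoxia) minus (DBA minus C57 in the other condition), were fitted on 12 libraries each. Printed CPM are counts scaled by the TMM-adjusted library total within a condition. Total counts of 5619309 to 25137581 set the precision. The procedure was tested on simulated counts. Alternatives were RLE factors, no filter, DESeq2 1.42.0, the replicate block, libraries thinned to the shallowest, fits with the 24 h controls or all 48 libraries, and a fit without mitochondrial genes. Single libraries were also left out. The interactions of the lists and named genes with each library left out were added after seeing the data.

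The members, gene lists and rules were chosen with earlier results of these data known. Genes named singly are the 12 with the largest difference in each direction among those with an adjusted p under 0.05, an average log2 CPM of at least 1, groups that did not overlap, and a call with the same sign without DBA replicate 2. To these were added the 6 with the largest difference among genes called in all 3 interactions with one sign, for which only the average log2 CPM was required. Predicted genes and pseudogenes were passed over. In each list the 2 to 4 members with the smallest p and a set of defining members were named. Other members, named where a count was of 5 or fewer or to complete a description, were chosen after their values were seen. Some members that fall under these rules are not reported here.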

Additional observations from a re-analysis of the deposited data

Results flagged for a closer look

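Among the genes named for the largest differences, for interactions in all 3 tests or as defining members, 17 had a strain difference that changed between conditions by the interaction test of edgeR. Over all genes 1.43% were called against the 24 h controls, 18.2% against normoxia and 0.232% against the 6 h controls. The 6 genes named for calls in all 3 tests had to be among the 17, so the count is a description only. For each gene the interaction with the smallest adjusted p is given here, as a log2 difference that is positive where the strain difference lay more toward DBA under normoxia-hyperoxia. Against the 24 h controls the values were H2-Q10 at 2.29, H2-Q1 at 3.37, Hgsnat at 2.65, Gsta2 at -2.38 and Nxpe4 at -3.90. H2-Q10, Hgsnat and Gsta2 were called with any of the 12 libraries left out, H2-Q1 in 4 of 12 such fits and Nxpe4 in 2 of 12.

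Against normoxia, the positive values were Gcnt1 at 8.23, Mlycd at 2.31, Havcr1 at 2.18, Rassf4 at 1.38, Gng2 at 1.22, Ahr at 0.68 and Nqo1 at 0.60. The negative values were Hdc at -5.64, C4a at -4.39, Cyp2j9 at -2.03, Hmox1 at -1.37 and Pm20d1 at -1.29. Ahr and Nqo1 were each called in 10 of 12 fits with 1 library left out, and the other 10 genes in all 12.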

How the results depend on the processing

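The count of 3286 genes ran from 2372 (libraries thinned to the shallowest) to 4544 (no filter on low counts) over the other settings, and from 2219 to 3301 with 1 library left out. The interaction with the 24 h controls, 247 genes, became 1156 with no filter, 661 by DESeq2 and 409 in the fit of all 48 libraries, and ran from 103 to 524 with 1 library left out. The interaction with normoxia, 3134 genes, became 1753 with thinned libraries and ran from 2240 to 3364. Its share more toward DBA was 39.6%, but 58.5% with thinned libraries, 61.2% with no filter and 51.5% in the fit of all 48 libraries. The interaction with the 6 h controls, 39 genes, became 712 with no filter, 252 by DESeq2, 12 with thinned libraries and 100 in the fit of all 48, and ran from 11 to 80. Strain differences numbered 2382 to 5014 in the 24 h controls, 6749 to 7731 under normoxia and 2216 to 5157 in the 6 h controls with 1 library left out. The cause of these changes was not tested. Counts of list members called moved by over 1.5 times in 38 combinations of list and setting other than a left-out library and stayed within it in 266. With no filter they included tubular injury (7 higher and 4 lower), NRF2 targets (6 and 5), MHC class II (6 and 1) and the mitochondrial genome (0 and 5). None of the genes followed singly under these settings changed sign, but some genes named above only to complete a description were not followed. In the fit of all 48 libraries the calls of Ahr, Pm20d1, Acacb, C3, Col1a1, Col1a2, Ddit4, Fos and H2-Aa ended, with adjusted p from 0.0504 (H2-Aa) to 0.293 (Col1a1). In the fit with the 24 h controls those of Acacb, C1qa, Hsd11b2 and Pm20d1 ended, with thinned libraries those of Ahr, P4ha1 and Pm20d1, by DESeq2 that of Ahr, and with the replicate block those of Gpnmb, Cpt1a, Ddit4 and mt-Nd5. The replicate numbers were not taken as pairs because the 2 strains are separate animals. Same-numbered libraries of the 2 strains deviated with correlations of -0.034, -0.00057 and 0.11, and other pairs with -0.15 to 0.14. With so few libraries these values cannot settle whether same-numbered libraries belong together. With a replicate block 3003 genes were called, and 347, 3622 and 30 in the 3 interactions. Depth limits genes at low counts in DBA replicate 2, where 2397 of the genes tested had under 10 counts, against 427 to 780 in the others.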
